A study of Mus musculus with 4 samples.

Results

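The comparison described here is the difference between 2 lipopolysaccharide (LPS) responses, that of dendritic cells lacking both liver X receptors (LXR-DKO) and that of wild-type (WT) dendritic cells. For each probe set with 1 gene symbol, the log2 ratio of LPS over control signal in WT was subtracted from the same ratio in LXR-DKO. A positive difference therefore means a higher LPS over control ratio in LXR-DKO, and a negative difference a lower one. Signals below the pooled median of all probe sets, 28.9, were set to that floor. The rule took in 34945 of the 45037 probe sets other than array controls, which stand for 18193 genes. Each gene was read from its brightest probe set, and 12478 genes reached the floor on at least 1 array, 9623 of them on all 4. Every array of the series enters each value, and each group holds 1 array, so there is no replicate error, no test and no p-value in what follows. All differences describe these 4 RNA samples.

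The 4 groups were bone marrow-derived dendritic cells of mice labelled C57/BL6: WT control, WT LPS, LXR-DKO control and LXR-DKO LPS. LXR-DKO animals lack LXRalpha, encoded by Nr1h3, and LXRbeta, encoded by Nr1h2. The labels describe this as a deficiency of the mice and name no cell type to which it was limited. Marrow cells were grown for 6 to 7 days with GM-CSF at 20 ng/mL, and the non-adherent cells were enriched for CD11c with magnetic beads. They were then kept for 24 h with GM-CSF at 10 ng/mL, alone as the control or with LPS at 100 ng/mL. The labels do not say how many animals gave the cells of a group.

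Liver X receptors are nuclear receptors that oxysterols activate. They switch on genes of cholesterol efflux, lipoprotein handling and fatty acid synthesis, and ligand-bound receptors restrain part of the inflammatory gene response in macrophages. LPS binds Toll-like receptor TLR4, and its signals through NF-kappaB, MAP kinases and interferon regulatory factors turn on cytokines, chemokines and interferon-stimulated genes. In dendritic cells it also starts maturation, during which the cells stop dividing, display costimulatory molecules and gain CCR7, the receptor that leads them to lymph nodes.

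From here on, 4 signals given for a gene are those of WT control, WT with LPS, LXR-DKO control and LXR-DKO with LPS, always in that order. The brightest Nr1h3 probe set had signals of 108.6, 54.5, 40.4 and 27.0. Both LXR-DKO signals lay below both WT signals, and the lowest lay under the floor. Nr1h2 was not analysed here. Itgax, which encodes CD11c, was bright on all 4 arrays, at 5012.2, 6093.0, 4404.5 and 3848.1, with a response difference of -0.48. Genes of the sex chromosomes separated the genotypes. Xist, which is expressed from the inactive X chromosome of female cells, had signals of 30.8 and 22.7 in WT and of 2750.0 and 2090.4 in LXR-DKO. The Y-linked genes Eif2s3y, Kdm5d and Uty were detected in both genotypes, with response differences of 0.49, 1.10 and 0.93, so that each stood higher in LXR-DKO LPS than in LXR-DKO control and slightly lower in WT LPS than in WT control. Genotype and the sex makeup of the cultures cannot be told apart, and the part of the sex makeup in the response difference was not tested. In bulk RNA, fewer cells of a type and less RNA per cell cannot be told apart.

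Promoters are shown for genes of the 3 groups whose responses are set apart in most detail below: 2 mitotic genes and 2 interferon-stimulated genes at opposite ends of the comparison, and 1 chemokine gene. Each sequence runs 5′ to 3′ on the gene's strand from 250 bases before to 50 bases after the transcript start, is taken from RefSeq on build GRCm38.p6, and carries in capitals every match to 1 motif on either strand. For Ccnb2 and Cdc20 the motif is TTTGAA, the core of the cell cycle homology region; for Gbp3 and Ifitm3 it is the interferon-stimulated response element, GAAA and GAAA with any 2 bases between them; for Cxcl2 it is a kappaB site, GGGA and TTCC with any 2 bases between them.
Ccnb2, chr9:70421505-70421804, minus strand: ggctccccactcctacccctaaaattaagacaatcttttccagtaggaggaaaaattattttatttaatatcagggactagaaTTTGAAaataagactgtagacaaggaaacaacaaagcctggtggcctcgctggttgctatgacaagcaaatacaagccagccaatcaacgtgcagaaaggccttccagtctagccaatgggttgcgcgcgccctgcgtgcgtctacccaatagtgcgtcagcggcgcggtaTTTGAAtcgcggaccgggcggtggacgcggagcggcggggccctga
Cdc20, chr4:118437294-118437593, minus strand: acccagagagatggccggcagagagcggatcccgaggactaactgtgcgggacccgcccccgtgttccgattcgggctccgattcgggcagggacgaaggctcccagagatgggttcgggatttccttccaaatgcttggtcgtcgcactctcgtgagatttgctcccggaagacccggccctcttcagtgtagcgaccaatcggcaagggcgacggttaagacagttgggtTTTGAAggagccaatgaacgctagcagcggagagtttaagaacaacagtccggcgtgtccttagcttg
Gbp3, chr3:142559794-142560093, plus strand: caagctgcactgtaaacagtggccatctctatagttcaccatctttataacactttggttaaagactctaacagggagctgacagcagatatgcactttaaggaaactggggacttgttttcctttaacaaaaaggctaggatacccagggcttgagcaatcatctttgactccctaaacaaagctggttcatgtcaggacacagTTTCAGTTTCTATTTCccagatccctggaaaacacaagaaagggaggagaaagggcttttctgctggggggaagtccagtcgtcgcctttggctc
Ifitm3, chr7:141010695-141010994, minus strand: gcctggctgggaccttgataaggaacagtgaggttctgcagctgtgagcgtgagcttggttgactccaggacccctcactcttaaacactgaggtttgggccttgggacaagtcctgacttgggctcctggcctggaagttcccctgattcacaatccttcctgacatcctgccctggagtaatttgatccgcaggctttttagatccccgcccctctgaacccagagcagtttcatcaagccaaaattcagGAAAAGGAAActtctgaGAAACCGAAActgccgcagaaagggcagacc
Cxcl2, chr5:90903649-90903948, plus strand: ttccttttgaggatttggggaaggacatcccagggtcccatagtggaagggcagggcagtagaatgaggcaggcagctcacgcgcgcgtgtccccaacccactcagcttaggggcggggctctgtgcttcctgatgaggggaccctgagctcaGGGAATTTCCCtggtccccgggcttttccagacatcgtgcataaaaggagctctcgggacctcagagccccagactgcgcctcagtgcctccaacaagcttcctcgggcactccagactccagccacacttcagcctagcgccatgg
Ccnb2 held 2 matches and Cdc20 1. In Gbp3, 2 matches on the opposite strand overlapped, at bases 206 to 215 and 212 to 221 of the window. The 2 matches in Ifitm3 began at base 253, after the transcript start at base 251. The 2 matches in Cxcl2 were 1 site read on both strands, offset by 1 base. Of the promoters of all 10093 measured genes that had one in the table, 11.8% held TTTGAA, 3.07% the interferon element and 1.49% the kappaB site. TTTGAA stood in 26 of 35 promoters of the mitosis and spindle genes described below (74.3%). The interferon element stood in 11 of 26 promoters of type I interferon response genes (42.3%) and in 6 of 7 of interferon-inducible GTPase genes (85.7%), and the kappaB site in 4 of 15 chemokine promoters (26.7%). A match is a run of letters in this window and no more.

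LPS responses that differed at least 2-fold were more often higher than lower in LXR-DKO. Of the 12478 measured genes, 949 (7.61%) had a response in LXR-DKO at least 2-fold above that of WT and 258 (2.07%) one at least 2-fold below. Over the 22885 measured probe sets themselves, 1446 (6.32%) were higher and 779 (3.4%) lower. At 4-fold the gene counts were 172 (1.38%) and 25 (0.2%). The median difference over all measured genes was 0.08 on the log2 scale, and 90% of genes lay between -0.72 and 1.22. In 4 groups of like size from dimmest to brightest, the median was 0.11, 0.17, 0.09 and -0.004. Among the 9623 genes whose 4 signals all reached the floor, 630 (6.55%) were higher and 159 (1.65%) lower. Quantile normalization left 804 higher and 370 lower, which lowered the share of higher calls from 78.6% to 68.5%.

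**Figure D1:**
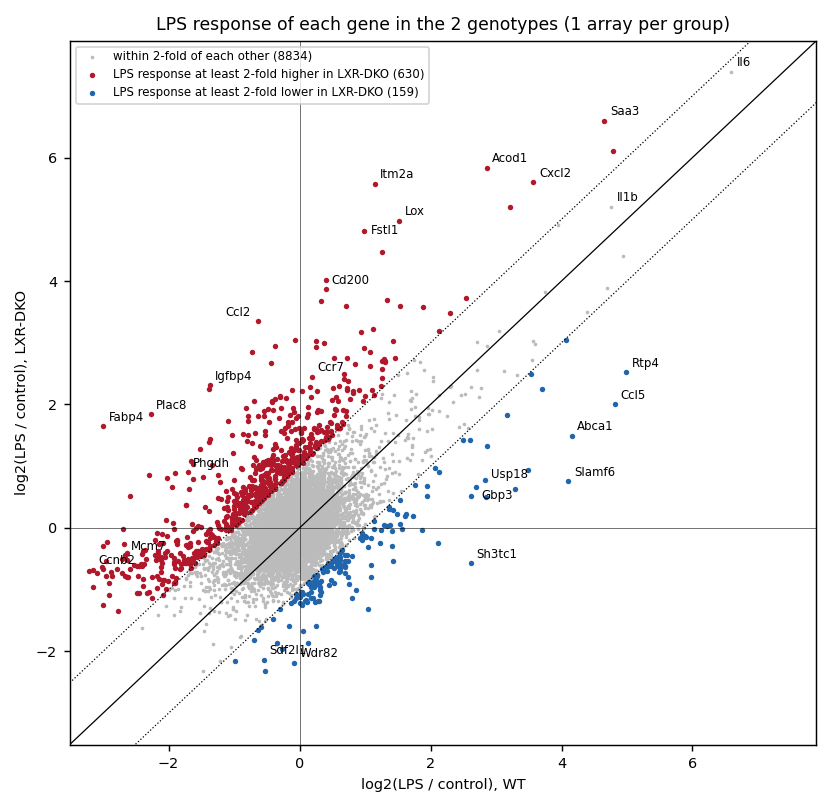
Each point is 1 of the 9623 genes whose 4 signals all reached the floor, placed by its log2 ratio of LPS over control in WT (x axis) and in LXR-DKO (y axis); the solid line marks equal responses and the dotted lines a 2-fold difference, with 1 array behind each of the 4 groups. The 630 red genes lie above the upper dotted line and the 159 blue genes below the lower one; Itm2a, Ccl2 and Fabp4 lie far above it, and Slamf6, Ccl5 and Abca1 far below.

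A gene with several probe sets gives a partial check within the same 4 samples. Over 4362 such genes, the difference varied between probe sets of a gene with an SD of 0.43. Of the 201 genes with a higher response and several fully measured probe sets, 171 (85.1%) had all of them above 0, and in 80 (39.8%) all passed 2-fold. Of the 62 such genes with a lower response, 51 (82.3%) had all below 0 and in 21 all passed 2-fold. The brightest probe set, which made the call, is among those counted, so part of this agreement was fixed by the selection. Of all 4357 genes with several fully measured probe sets, 51.6% had them on 1 side. Those genes were not selected by their difference, so that share is not a matched baseline. These probe sets share their RNA, so the spread between cultures is not in them.

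The 2 responses behind the difference were of unequal balance. In WT, 336 genes (2.69%) were at least 2-fold higher with LPS and 548 (4.39%) lower, whereas in LXR-DKO 735 (5.89%) were higher and 215 (1.72%) lower. The higher responses were of 2 main kinds. In 386 of the 949 genes (40.7%) the ratio of LPS over control was within 2-fold in WT and at least 2-fold up in LXR-DKO, and in 261 (27.5%) it was at least 2-fold down in WT and within 2-fold in LXR-DKO. Only 42 genes were at least 2-fold up in both genotypes and 10 at least 2-fold down in both. In 15 genes the 2 genotypes passed 2-fold in opposite directions, and in 235 neither genotype alone passed 2-fold. Among the 258 lower responses, 80 genes were up in WT alone, 74 were down in LXR-DKO alone, 17 were up in both, 2 were opposed and 85 passed in neither.

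The same 4 signals can be read as a genotype difference without and with LPS, and the change between the 2 is by arithmetic the same number. Without LPS, 1487 genes (11.9%) were at least 2-fold above WT in LXR-DKO and 1088 (8.72%) below; with LPS the counts were 2141 (17.2%) and 1053 (8.44%). In 420 of the 949 genes (44.3%) LXR-DKO and WT lay within 2-fold without LPS and LXR-DKO was at least 2-fold higher with it, as in Itm2a, Igfbp4 and Sema7a. In a further 188 genes LXR-DKO was already at least 2-fold higher without LPS and the gap was wider with it, as in Plac8, Lad1 and Ccnb2. In 147 genes (15.5%) LXR-DKO was at least 2-fold lower without LPS and within 2-fold of WT with it, as in Ccl2, Ccl3, Ccl7 and Cd200. In 51 genes, among them Fstl1, Rgs1 and Acod1, it was lower in both conditions but by less with LPS. Of the 258 genes with a lower response, 80 were within 2-fold of WT without LPS and at least 2-fold lower with it, as Slamf6 and Slfn5 were, and 76 had been higher in LXR-DKO without LPS and were within 2-fold with it, as Ccl5, Abca1, Usp18 and Gbp3 were.

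**Figure D2:**
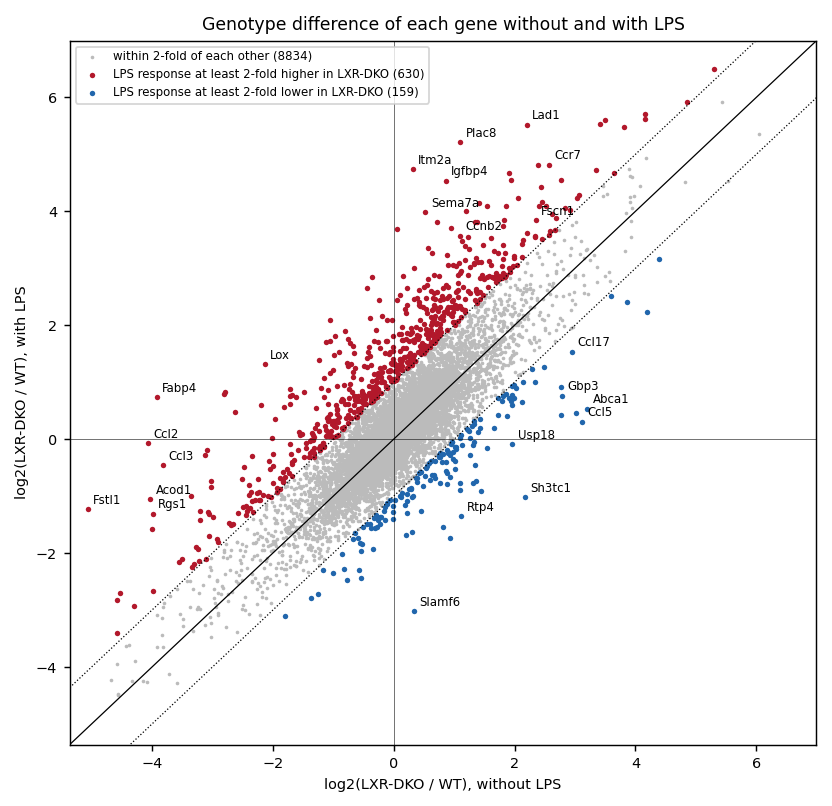
Each point is 1 of the same 9623 genes, placed by log2 LXR-DKO over WT without LPS (x axis) and with LPS (y axis); colours are as in the plot of LPS responses, the solid line marks an equal genotype difference and the dotted lines a 2-fold change of it. Ccl2 and Ccl3 lie far left of 0 and near 0 in height, Itm2a and Igfbp4 near 0 across and high up, and Ccl5 and Abca1 far right of 0 and near 0 in height.

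Genes of secreted and surface proteins were among those at the upper end of the comparison. Fabp4, the fatty acid carrier of adipocytes and macrophages, had the highest difference of the fully measured genes, 4.65. Its signals were 707.9, 88.4, 46.9 and 147.2, so that the WT control stood apart from the 3 others. Itm2a, an integral membrane protein gene, came next at 4.42, with 37.3, 82.8, 46.5 and 2213.6. Here the LXR-DKO LPS array alone was high, and both of its fully measured probe sets passed 2-fold, the other at 3.11. Plac8, which encodes a small cysteine-rich protein, had signals of 264.4, 54.7, 568.9 and 2034.4 and a difference of 4.11, lower with LPS in WT and higher with LPS in LXR-DKO.

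Fstl1, a secreted glycoprotein gene, had signals of 1189.7, 2345.3, 35.7 and 1003.6. It was 1.97-fold higher with LPS in WT and 28.1-fold higher in LXR-DKO, and both LXR-DKO signals lay below both WT signals. Igfbp4, which binds insulin-like growth factors, had signals of 513.0, 198.0, 931.1 and 4610.6 and a difference of 3.68, and its 5 fully measured probe sets ranged from 1.66 to 3.70. Sema7a, a membrane-anchored semaphorin gene, had 135.7, 180.1, 195.3 and 2847.0 and a difference of 3.46. Lox, whose product cross-links collagen, had 171.7, 494.5, 39.1 and 1232.7 and a difference of 3.45. Tspoap1, Lad1, Pla1a and the growth factor gene Pdgfc completed the 15 highest together with Cd200, Ccl2, Ccl3 and Ccl7, with differences of 3.64, 3.33, 3.20 and 3.15 for the first 4.

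Some genes could only be given a lower limit, because LXR-DKO control or WT LPS was under the floor. Ly75, which encodes the antigen uptake receptor DEC-205, had signals of 208.0, 247.4, 24.7 and 713.7 and a difference of at least 4.38. The connexin gene Gja1 stood at 3.60 or more, although its fully measured probe set gave 2.50. The serine protease gene Htra1 stood at 3.57 or more and the scramblase gene Plscr4 at 3.29 or more. Nkain1 had a lower limit of 3.53 from its brightest probe set, but its fully measured probe set gave 0.03.

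**Figure D3:**
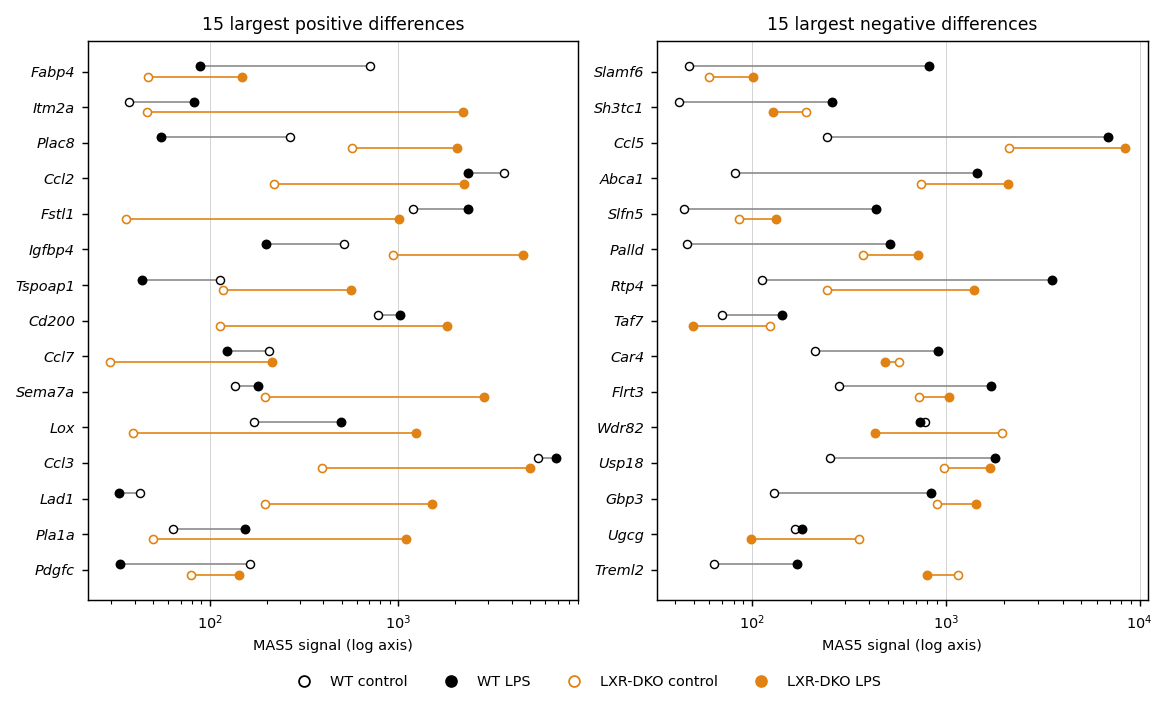
MAS5 signals on a log axis of the 15 genes with the highest (left) and the 15 with the lowest (right) response difference among genes whose 4 signals all reached the floor; open circles are control and filled circles LPS, black is WT and orange LXR-DKO, and each circle is 1 array. In the left panel the orange lines run far to the right for Itm2a, Fstl1 and Cd200 while the black ones are short or run left; in the right panel the black lines are long and the orange ones short for Slamf6, Ccl5 and Abca1.

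The lower end held interferon-stimulated genes, the chemokine gene Ccl5 and the cholesterol exporter gene Abca1. Slamf6, a receptor of the SLAM family on lymphoid and myeloid cells, was lowest at -3.35, with signals of 47.3, 813.9, 59.6 and 100.5. Only the WT LPS array was high, and the second probe set passed 2-fold the same way at -1.06. Ccl5, a chemokine that draws T cells, had 242.5, 6830.4, 2109.9 and 8451.2. It was 28.2-fold higher with LPS in WT and 4.01-fold higher in LXR-DKO, and the 2 LPS signals lay within 1.24-fold of each other, so the gap lay in the controls. Abca1, which moves cholesterol to lipid-poor apolipoprotein and is a direct LXR target, had 81.1, 1447.2, 744.9 and 2099.5. It too was higher in LXR-DKO control than in WT control and similar between genotypes with LPS, for a difference of -2.66.

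Palld, an actin scaffold gene, followed the same form with 46.2, 516.0, 374.4 and 713.7 and a difference of -2.55. Sh3tc1 had 42.0, 257.4, 189.6 and 127.6 and a difference of -3.19, which crossed from higher to lower in LXR-DKO. Slfn5, a Schlafen family gene, stood at -2.66 by its brightest probe set, while another of its 3 fully measured probe sets gave 0.12. Wdr82, a subunit of a histone methyltransferase complex, was lower with LPS in LXR-DKO alone, with 784.2, 737.6, 1959.0 and 431.7. Ugcg, which makes glucosylceramide, had 166.0, 180.9, 356.3 and 98.0, and its probe sets ranged from -1.99 to -0.17. The other fully measured genes among the 15 lowest were Rtp4, Taf7, Car4, Flrt3, Usp18, Gbp3 and Treml2, between -2.47 and -1.96. Among genes given only an upper limit, the kinase gene Zap70 stood at -3.49 or lower, the siderophore-binding protein gene Lcn2 at -3.28 or lower and Mchr1 at -2.61 or lower. St3gal6 stood at -2.37 or lower by its brightest probe set. It stood at 1.35 when probe sets whose names end in _s_at, _x_at or _a_at were left out, so its direction was not settled.

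Chemokine genes went both ways. Of the 23 measured chemokine genes, 10 had a higher response in LXR-DKO by at least 2-fold (43.5%, against 7.61% of all measured genes) and 3 a lower one (13.0%, against 2.07%), with a median difference of 0.23, or 0.92 over the 18 measured on all arrays. Ccl2, Ccl7, Ccl3 and Ccl4, which draw monocytes among other cells, were among the higher ones. Ccl2 had signals of 3638.8, 2340.3, 218.5 and 2227.1, so that LXR-DKO control stood apart and the other 3 lay together. Ccl3 had 5499.5, 6867.8, 392.6 and 5012.2, and Ccl7 205.6, 123.7, 29.5 and 213.5, in the same form. Ccl4 had 1998.8, 2411.4, 218.2 and 1011.9, and remained 2.38-fold lower in LXR-DKO with LPS. The differences were 3.99 for Ccl2, 3.35 for Ccl3, 3.59 for Ccl7 and 1.94 for Ccl4. In WT the ratio of LPS over control of these 4 genes was within 2-fold, and in LXR-DKO it lay between 4.64-fold and 12.8-fold.

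Cxcl1, Cxcl2 and Cxcl3, which attract neutrophils, were higher with LPS in both genotypes and by more in LXR-DKO. Cxcl2 had signals of 614.5, 7309.4, 152.1 and 7400.4, a WT ratio of 11.9-fold and an LXR-DKO ratio of 48.7-fold. Cxcl3 had 899.5, 8338.6, 162.6 and 5973.3 and a difference of 1.99. Cxcl1 differed in that its controls were close, at 93.5 and 80.4, and its LPS signals were 2569.0 in WT and 5564.4 in LXR-DKO. Cx3cl1, a membrane-bound chemokine gene, had 54.0, 31.3, 207.7 and 731.4. Lower responses were those of Ccl5, Cxcl16 and Ccl17, each of which was higher in LXR-DKO without LPS. Ccl17, which binds CCR4 on T cells, had 935.0, 2851.2, 7194.6 and 8268.3 and a difference of -1.41. Its neighbour Ccl22 was within 2-fold at -0.52, and Ccl6 and Ccl9, bright on every array, stood at -0.32 and -0.03.

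Inflammatory cytokine and mediator genes had a median difference of 1.09 over 27 measured members. Of these, 15 had a higher response (55.6%, against 7.61% of all measured genes) and 1, Lcn2, a lower one (3.70%, against 2.07%). All 27 reached the floor in LXR-DKO with LPS, but only 17 in WT control. Over the 15 members that reached it on all 4 arrays the median was 0.82. Of the 15 genes with a higher response, 8 were within 2-fold in WT and up in LXR-DKO. A further 6 were up in both genotypes and 1, Il18, was down in WT alone. Acod1, which makes itaconate, had 993.5, 7208.1, 61.0 and 3481.9, so that LPS over control was 7.26-fold for WT and 57.1-fold for LXR-DKO while both LXR-DKO signals were below their WT counterparts. The acute phase gene Saa3 had 188.5, 4749.7, 89.3 and 8658.4. Il15, a cytokine that supports NK and memory T cells, had 110.1, 76.0, 108.3 and 322.7. Il12b, the p40 chain of IL-12 and IL-23, had 21.7, 61.0, 34.9 and 1016.2, and the hormone gene Hamp had 12.3, 149.7, 23.9 and 2479.1. Nos2 was above the floor in LXR-DKO LPS alone, at 217.8, with 15.3 in WT LPS. For the brightest probe sets of Il12b, Hamp and Nos2 a control was under the floor in a way that leaves the size of the difference without a limit. The fully measured probe set of Hamp gave 3.48.

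The responses of 3 classical LPS cytokine genes differed by less than 2-fold. Il6 had 29.3, 2828.7, 32.7 and 5492.0 and a difference of 0.80. Il1b had 332.4, 9011.6, 195.6 and 7211.8, and Tnf 355.8, 1208.6, 122.5 and 475.2, with differences of 0.44 and 0.19. The last 2 differences are no larger than about the SD of 0.43 between probe sets of a gene. Lcn2, listed also as a neutrophil granule gene, had 11.9, 1216.9, 1583.8 and 6861.0, and was higher in LXR-DKO in both conditions.

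Genes of dendritic cell maturation had a median difference of 1.00. Of 29 measured members, 15 had a higher response in LXR-DKO (51.7%, against 7.61% of all measured genes) and 0 a lower one (against 2.07%), and 25 lay above 0. In 12 of the 15 the WT ratio was within 2-fold and the LXR-DKO ratio at least 2-fold up. Ccr7, the homing receptor, had signals of 201.3, 229.8, 1189.3 and 6482.5. It was 1.14-fold higher with LPS in WT and 5.45-fold higher in LXR-DKO, and both LXR-DKO signals lay above both WT signals. Fscn1, the actin-bundling protein of mature dendritic cells, had 667.0, 640.6, 3408.3 and 9182.7, and its 3 probe sets gave 1.36 to 2.27. Cd83, which keeps MHC class II on the surface, had 217.8, 384.9, 956.5 and 4335.3. The costimulatory gene Cd80 had 234.2, 226.6, 227.6 and 576.2, where only LXR-DKO LPS was high.

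Cd200, the ligand of an inhibitory receptor, had 775.0, 1023.2, 112.5 and 1815.8 and the largest difference of the list, 3.61. Serpinb6b had 116.3, 66.2, 224.6 and 862.0, and Tnfsf4, which encodes OX40 ligand, 124.0, 61.5, 101.0 and 233.6. Not every maturation gene had this form. Cd40 was 4.91-fold higher with LPS in WT and 4.87-fold higher in LXR-DKO. Cd86, at 481.8, 656.7, 1656.1 and 3422.1, differed by 0.60, and Il2ra, the IL-2 receptor alpha chain, by -0.99 with 51.3, 81.0, 2361.7 and 1878.3. The WT samples had a low maturation response at 24 h by this list, with a median log2 ratio of 0.45 against 1.43 in LXR-DKO.

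Among 21 measured receptors for chemoattractants, 5 had a higher response (23.8%, against 7.61% of all measured genes) and 0 a lower one. The median was 0.18, and -0.07 over the 15 that reached the floor on all arrays. Besides Ccr7, the other 4 were Cxcr4, Cxcr5, S1pr4 and Cxcr3, of which Cxcr4 alone reached the floor on all arrays. Cxcr4, the receptor of CXCL12, had 849.2, 869.6, 421.7 and 895.2. Inflammatory receptors such as Ccr1, Fpr2 and C5ar1 stood at -0.44, -0.07 and -0.85. Of 49 genes of the actin and migration machinery 9 had a higher response (18.4%, against 7.61%) and 0 a lower one, and the median was 0.13. Rgs1, which dampens chemokine receptor signalling, had 2806.3, 3328.2, 177.3 and 1344.6 and the highest difference of that list, 2.68. The integrin gene Itga4 had 205.3, 118.3, 190.7 and 507.6. The integrin gene Itgam stood lowest at -0.89. Cytoskeletal genes such as Cdc42, Rac1 and Rhoa were between -0.49 and -0.28.

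Of 22 measured early-response transcription factors 7 had a higher response (31.8%, against 7.61% of all measured genes) and 1 a lower one (4.55%, against 2.07%), with a median of 0.51. Atf3, a stress-induced factor that limits cytokine genes, had 2900.1, 3472.7, 365.8 and 1350.6. Fos, an AP-1 subunit gene, had 1756.8, 1430.0, 73.3 and 136.2, far lower in LXR-DKO throughout. Egr3 had 120.9, 32.5, 58.0 and 106.9, a difference of 2.78, while its relative Egr2 had 2061.6, 3163.5, 1435.2 and 887.1, a difference of -1.31. Of 19 measured phosphatase and feedback genes 6 were higher (31.6%) and 1 lower (5.26%). The median of that list was 0.45, and -0.026 under a floor set at the 75th percentile of signals. Dusp1, which switches off p38 and JNK, had 1428.9, 2122.9, 615.2 and 1949.9, and Socs3, the inhibitor of IL-6 signalling, 1301.4, 3184.6, 513.3 and 3425.3. In both, the gap of the controls was closed with LPS. Dusp2 had 68.1, 55.7, 30.6 and 117.3. The 1 lower member, Dusp16, stood at -1.07, and at 0.82 when probe sets ending in _s_at, _x_at or _a_at were left out.

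Cell division genes were lower with LPS in WT and much less so in LXR-DKO. All 41 measured mitosis and spindle genes had a difference above 0, and 32 passed 2-fold (78.0%, against 7.61% of all measured genes), with a median of 1.44. Their median log2 ratio of LPS over control was -2.21 in WT and -0.71 in LXR-DKO. In 27 of the 32 the WT ratio was at least 2-fold down and the LXR-DKO ratio within 2-fold, and in 5 both were at least 2-fold down. Ccnb2, a mitotic cyclin gene whose promoter is printed above, had 635.2, 71.6, 1362.8 and 853.2. Cdc20, which activates the anaphase-promoting complex, had 875.4, 102.6, 1608.6 and 965.7. In both, WT LPS was the single low array. The kinetochore gene Nuf2 had 303.2, 32.8, 231.6 and 143.0, the highest difference of the list at 2.51, and Nusap1, a spindle protein gene, 621.7, 84.6, 1156.9 and 708.4.

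Of 37 DNA replication and S phase genes 18 had a higher response (48.6%, against 7.61% of all measured genes) and 0 a lower one, with a median of 0.93. Mcm7, a subunit of the replicative helicase, had 1084.6, 171.5, 2464.5 and 1809.7, although its 4 fully measured probe sets ranged from 0.57 to 2.22. Uhrf1, which maintains DNA methylation behind the fork, had 394.1, 60.1, 624.0 and 442.1. Rrm1, a ribonucleotide reductase subunit gene, had 959.6, 187.7, 1108.7 and 867.7. Members below 0 were few and included the sliding clamp gene Pcna at -0.19 and the S phase regulator E2f1 at -0.95. Many WT LPS signals lay near the floor, and with the floor raised to 177.4, the 75th percentile of signals, the medians were 0.40 for mitosis and 0.28 for replication.

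**Figure D4:**
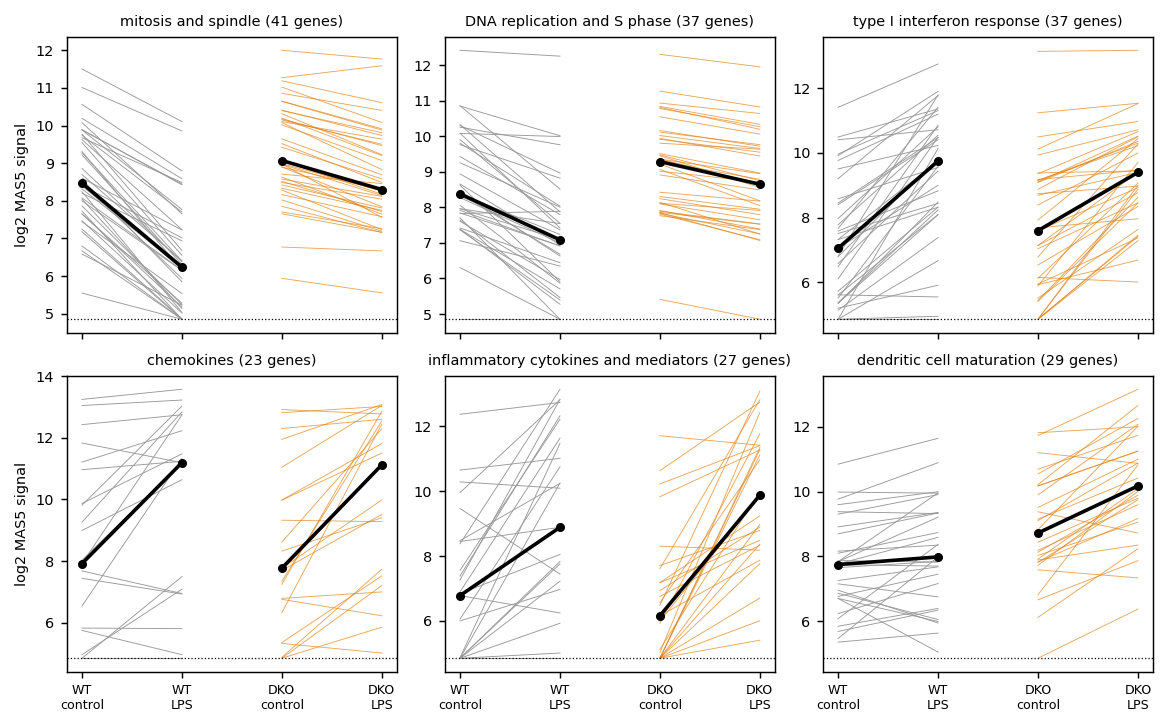
Log2 MAS5 signals of every measured member of 6 gene lists on the 4 arrays, with signals under the floor drawn at it (dotted line); thin lines join control and LPS of a gene within a genotype (grey WT, orange LXR-DKO) and thick black lines join the medians. The mitosis panel shows lines that run down steeply in WT (median log2 ratio -2.21) and less so in LXR-DKO (-0.71), and the dendritic cell maturation panel a nearly flat WT median beside a rising LXR-DKO median (DKO on the axis stands for LXR-DKO).

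Type I interferon response genes had the lowest median of the 35 lists, -0.54. Of 37 measured members 9 had a response at least 2-fold lower in LXR-DKO (24.3%, against 2.07% of all measured genes), 1 a higher one, and 26 lay below 0. The list was higher with LPS in both genotypes, with a median log2 ratio of 2.03 in WT and 1.42 in LXR-DKO. In 6 of the 9 lower members both genotypes were at least 2-fold up with LPS, and in the other 3, Usp18, Trim30a and Ifitm3, WT alone was. Rtp4, a chaperone gene induced by interferon, had 111.9, 3549.9, 242.4 and 1389.0. It was 31.7-fold higher with LPS in WT and 5.73-fold higher in LXR-DKO, and WT LPS was the highest array. Usp18, which removes ISG15 and dampens the interferon receptor, had 250.8, 1791.3, 978.3 and 1681.0, where the LPS signals were alike and the controls were not.

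Ifitm3, a restriction factor against enveloped viruses, had 2721.8, 6898.6, 9043.0 and 9260.5. LXR-DKO control thus exceeded WT with LPS, and the LXR-DKO ratio was 1.02-fold. Of the 9 lower members, 4 stood at least 2-fold above WT without LPS and within 2-fold with it (Usp18, Dhx58, Ifitm3 and Phf11d). A further 3, Ifit1, Ifit3 and Trim30a, were within 2-fold without LPS and at least 2-fold lower with it. Ifit3 had 45.5, 767.5, 42.3 and 350.6. Rtp4 changed from higher to lower, and Ifit2 stayed within 2-fold in both conditions. The 2 forms thus stood side by side within 1 list.

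Other interferon genes differed by less than 2-fold in their response while their levels differed between genotypes. Rsad2, which encodes viperin, was 13.4-fold higher with LPS in WT and 14.1-fold in LXR-DKO, with 202.7, 2724.8, 59.1 and 834.6. Mx1, an antiviral GTPase gene, had 36.6, 59.9, 548.7 and 1467.6 and a difference of 0.71. Xaf1 was the 1 higher member by its brightest probe set, but its fully measured probe set gave -3.19. Its difference was -0.99 as a median over probe sets and -3.30 under scaling to the 75th percentile, so its direction was not settled. Of 9 interferon-inducible GTPases, which attack vacuoles of intracellular microbes, 2 had a lower response (22.2%, against 2.07% of all measured genes) and 1 a higher one (11.1%, against 7.61%). Gbp3 had 129.6, 837.7, 894.9 and 1423.6, so that LXR-DKO control already matched WT LPS. Gbp7 had 1007.6, 2466.7, 2417.2 and 2498.5, with WT control the single low array. Gbp2, with 595.2, 3876.2, 200.2 and 1173.6, differed by -0.15.

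Genes of LXR biology had a median difference close to that of all genes. Of 23 measured LXR target genes 3 had a higher response (13.0%, against 7.61% of all measured genes) and 1, Abca1, a lower one (4.35%, against 2.07%), with a median of 0.25. These shares are near those of all genes. Apoc2, an activator of lipoprotein lipase, had 39.1, 77.7, 137.5 and 1039.1, and Mylip, which targets the LDL receptor for degradation, 476.0, 241.3, 373.6 and 490.1. The third was Rgs16, whose difference was at least 1.01. The cholesterol exporter gene Abcg1 stood at 0.29 and the desaturase gene Scd1 at 0.68. None of the 22 cholesterol synthesis and uptake genes passed 2-fold, and of 17 fatty acid synthesis genes only the acetyl-CoA synthetase gene Acss2 did, at -1.04.

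PPAR gamma and lipid storage genes had a median of 0.20 over 16 members, 5 higher (31.3%, against 7.61% of all measured genes) and 1 lower (6.25%, against 2.07%). Besides Fabp4, Angptl4, an inhibitor of lipoprotein lipase, had 313.0, 131.4, 37.7 and 52.9, and Pparg itself 171.0, 44.4, 83.4 and 48.8. In these genes WT control was the highest array and the genotypes were closer with LPS. Dgat2, which makes triglycerides, had 68.1, 73.4, 52.4 and 181.1. The lower member was Aldh1a2, which makes retinoic acid, at 44.7, 195.2, 936.2 and 1745.5. Its difference was -1.23, and 0.76 with the floor at the 75th percentile.

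Amino acid and stress genes went both ways. Of 31 measured genes of the ATF4 and unfolded protein responses 6 were higher (19.4%, against 7.61% of all measured genes) and 2 lower (6.45%, against 2.07%), with a median of -0.02. Phgdh, which starts serine synthesis, had 670.8, 205.1, 203.6 and 379.5, and its 4 fully measured probe sets gave 2.07 to 2.76. Atf5 had 528.0, 457.9, 136.1 and 583.3, and Asns, asparagine synthetase, 514.8, 397.1, 243.3 and 493.5, with LXR-DKO control the single low array in both. The cystine transporter gene Slc7a11, the stress sensor gene Ern1 (probe sets from 0.37) and the amino acid transporter gene Slc7a5 were the other 3, at 1.32, 1.23 and 1.20. The 2 lower members, Sdf2l1 and Dnajc3, encode chaperone partners of the endoplasmic reticulum. Sdf2l1 had 1587.3, 1085.0, 1251.7 and 285.2.

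Uptake receptors and MHC genes gave a mixed picture. Of 28 pattern, scavenger and lectin receptor genes 5 had a higher response (17.9%, against 7.61% of all measured genes) and 2 a lower one (7.14%, against 2.07%), with a median of 0.20. Marco, a scavenger receptor gene, had 273.6, 446.6, 32.2 and 390.1, with LXR-DKO control the single low array. The galactose-binding lectin gene Mgl2 had 534.1, 86.2, 5721.2 and 3988.9, and the mannose receptor gene Mrc1 1939.9, 285.0, 378.9 and 149.3. Fcgr2b, the inhibitory Fc receptor, had 3270.5, 7177.1, 5585.2 and 6050.6 and a difference of -1.02. Of 14 MHC class II presentation genes 2 had a higher response (14.3%), H2-DMb2 and H2-Ob, and the median was 0.49. The difference of H2-Ob, at least 1.15, was -0.29 under a floor of 177.4. H2-DMb2, a subunit of the peptide-loading catalyst, had 775.0, 173.2, 5269.9 and 4072.7. H2-Aa, 1 of the chains that hold the peptide, had 5932.0, 3837.4, 11369.0 and 10848.0 and a difference of 0.56.

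Several pathways of the LPS response itself showed little difference. None of 23 measured NF-kappaB pathway and feedback genes passed 2-fold in either direction, and their median was 0.11. Of 20 Toll-like receptor and adaptor genes 2 had a higher response (10.0%, near the 7.61% of all measured genes), Tlr1 and the C-type lectin gene Clec4e, with a median of -0.14. Tlr1 stood at 1.73, and at -0.27 under a floor of 177.4. The 2 fully measured probe sets of Clec4e gave -0.91 and 1.18. No member passed 2-fold among 35 respiratory chain and TCA cycle genes (median -0.13), 29 lysosomal genes (median -0.07) and 13 heat shock genes (median 0.07). Of the NRF2, glycolysis, survival and MHC class I lists, with 25, 28, 21 and 15 members, 2, 3, 3 and 2 were higher and none was lower. These are 8.0%, 10.7%, 14.3% and 13.3%, near the 7.61% of all measured genes. At 1 array a group these counts do not show that the responses were equal.

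**Figure D5:**
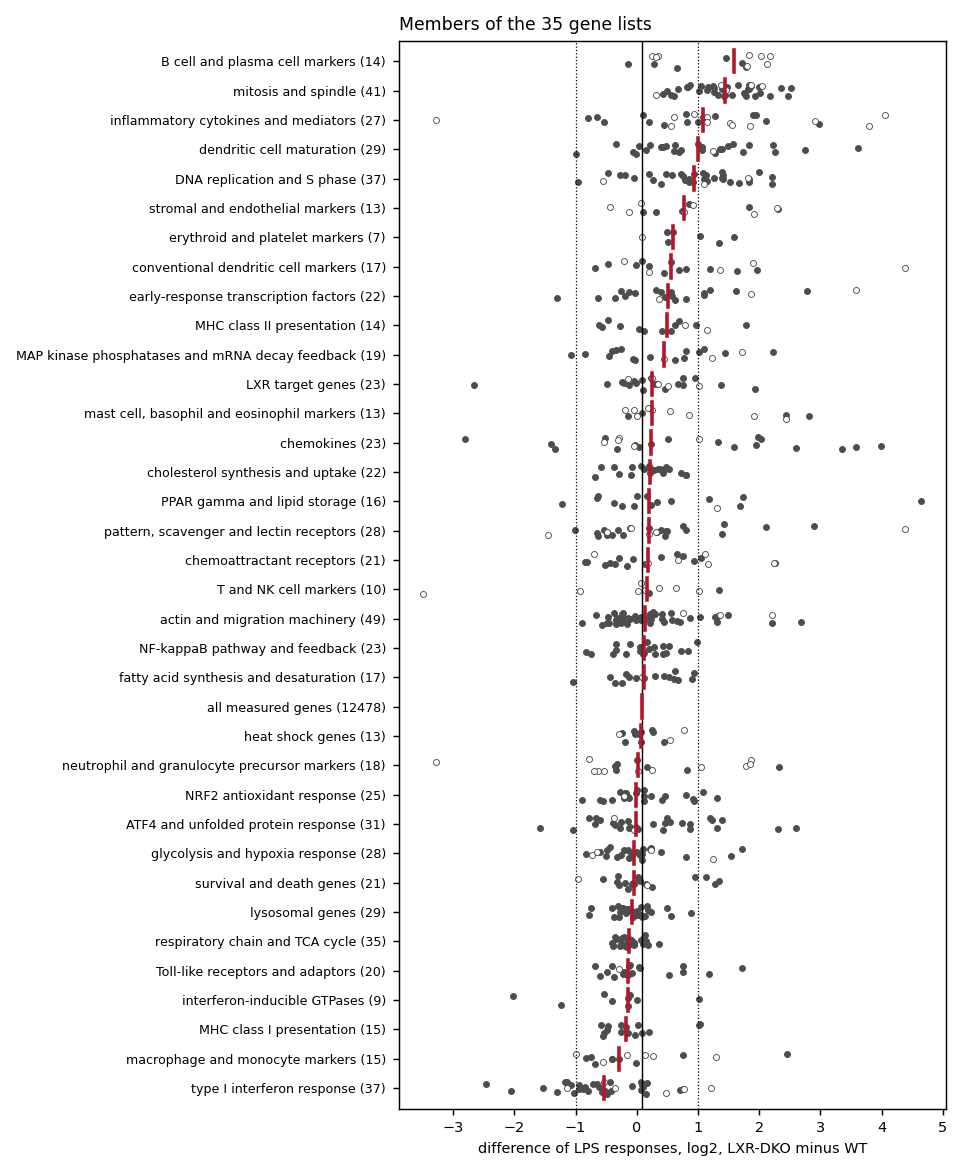
Response difference (log2, LXR-DKO minus WT) of every measured member of the 35 gene lists; filled circles are genes whose 4 signals all reached the floor, open circles the rest, red bars the list medians, the solid line the median of all 12478 measured genes (0.08) and the dotted lines 2-fold. Vertical scatter within a list has no meaning, and the number of members is in brackets. The medians of the B cell and mitosis lists lie furthest to the right and that of the type I interferon list furthest to the left. Over filled circles alone the B cell median is 1.05. It then lies left of mitosis at 1.44 and of mast cell markers at 1.26, the latter from 4 of 13 members.

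Markers of cells other than dendritic cells also differed in their response. B cell and plasma cell markers had a median of 1.58, the highest of the 35 lists over members that reached the floor on at least 1 array. Over the 6 that reached it on all arrays the median was 1.05. That was below the 1.44 of mitosis and the 1.26 of mast cell markers, the latter from only 4 genes. Of 14 measured members, of 20 listed, 8 had a higher response (57.1%, against 7.61% of all measured genes) and 0 a lower one. Sums of signals, here and for the lists below, are over every listed gene on the array, measured or not. For the 18 such B cell and plasma cell markers they were 2488, 4214, 4498 and 8879. Blnk, with 1686.0, 3547.1, 183.8 and 1324.1, made up most of both WT sums. Of the 18 genes, 7, 6, 11 and 14 reached the floor on the 4 arrays in turn. All 14 measured members thus reached it in LXR-DKO LPS, while some of the 8 higher ones lay under it on both WT arrays. The B cell antigen gene Ms4a1 had 20.5, 19.1, 208.4 and 851.0, and Cd79a 4.9, 1.2, 114.6 and 397.7, so that both were under the floor in WT and above it in LXR-DKO. For these genes, and for Cd79b and Pou2af1, the floor fixed the WT ratio. That leaves the size of their difference without a limit. Pax5, the factor that defines B cells, stayed between 28.9 and 51.0 on all arrays. Mast cell, basophil and eosinophil markers had 4 of 13 measured members higher (30.8%) and 0 lower, and a median over the 13 of 0.24. Their sums were 774.6, 927.9, 2126 and 3695, and 6, 6, 12 and 12 of them reached the floor on the 4 arrays in turn. The protease gene Cpa3 had 112.7, 43.8, 259.0 and 706.2, and Mcpt8 50.6, 15.1, 202.0 and 436.5.

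For the shares that follow, 7.61% of all measured genes were higher and 2.07% lower. Stromal and endothelial markers had 4 of 13 members higher (30.8%) and 0 lower, with sums of 1306, 1828, 748.8 and 2494. The collagen gene Col1a2 had 314.6, 181.8, 38.6 and 109.9. Erythroid and platelet markers had 3 of 7 higher (42.9%) and 0 lower, with sums of 4020, 7182, 2877 and 7220. These sums were mostly Pf4 and Car2, which were not among the 3, with differences of 0.51 and 0.60. Neutrophil markers had 5 of 18 members higher (27.8%) and 1 lower (5.56%), a median response difference of 0.01 and sums of 16274, 17233, 30555 and 39198. The granule gene Ngp had 17.5, 23.2, 3361.7 and 2308.1, under the floor in WT and bright in LXR-DKO. T and NK cell markers had 2 of 10 higher (20.0%) and 1 lower (10.0%), and sums of 6626, 7935, 1324 and 2836 that were mostly Il7r, while the T cell receptor gene Cd3d was at 31.6 or less everywhere. Macrophage and monocyte markers had 2 of 15 higher (13.3%), none lower and a median of -0.30. Conventional dendritic cell markers had 6 of 17 higher (35.3%), none lower and a median of 0.56. Among the 6 was the transcription factor gene Irf8 with 653.5, 590.0, 1477.8 and 5223.9. Of the others, Ly75 and Itgae gave only lower limits, and the difference of Flt3 had no limit. In contrast, 4 of the 17 lay below 0. Among them was the transcription factor gene Irf4 at -0.69, with -1.55 from its other probe set. The part of these markers, or of the cells that carry them, in the differences given for the other gene groups was not tested.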

How the data were processed

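Per the labels' protocols, biotinylated cRNA was made from total RNA with a 2-cycle target preparation and 1 array was run per sample. Per the submitters' processing notes, the intensity values were computed with MAS5, whose version is not given in the sources used here. The deposited values are linear signals that the authors had scaled, as the mean after leaving out 2% of values at each end was 200.0 on all 4 arrays. Between 47.8% (WT LPS) and 52.6% (LXR-DKO LPS) of probe sets reached the floor on an array. The median signal of probe sets other than controls was 27.6, 25.9, 30.1 and 32.9 on the 4 arrays. The part of this shift in the response difference was not tested. Genes were named from the platform annotation: 34945 probe sets had 1 symbol, 932 several and 9160 none, and 34741 matched a RefSeq gene, which changed 0 symbols.

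A floor at the pooled median, 28.9, was set before log2 ratios were taken, and a gene was read from its brightest probe set by mean signal. A gene was measured when at least 1 array reached the floor. It was called past a 2-fold difference, a log2 value of 1. Where floored signals could only shrink the difference, it is given as a limit; where they could act either way, signals alone are given. The only error at hand is the SD between probe sets of a gene. It does not cover cultures or mice.

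Named by rule were Nr1h3, the 15 highest and 15 lowest fully measured genes without provisional names, and the 5 largest limits in each direction, 1 of which is not reported here. Members of 35 gene lists were named by their difference, and others to show that members go both ways; other genes were chosen after their values were seen. Members and lists were chosen with earlier results of these data known. Promoters came from RefSeq, build GRCm38.p6, which held one for 10093 of the 12478 measured genes (80.9%), and 8 motifs were searched on both strands. Scaling, normalization, floor, filter, probe set and sex chromosome alternatives were tried. Python 3.11.15, numpy 2.4.6, pandas 2.3.3 and matplotlib 3.10.9 were used, and the counting was tested on simulated data.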

Additional observations from a re-analysis of the deposited data

Results flagged for a closer look

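In 17 genes the LPS over control ratio passed 2-fold in opposite directions in the 2 genotypes, with 1 array a group, so that the difference was not tested. In 15 of them WT was lower and LXR-DKO higher with LPS. Fabp4, Plac8, Igfbp4 and Tspoap1 had differences of 4.65, 4.11, 3.68 and 3.64, and Plscr4 one of at least 3.29. Plac8, Igfbp4 and Tspoap1 had their highest signal in LXR-DKO with LPS and their lowest in WT with LPS, whereas Fabp4 had its highest in WT control. The mast cell protease gene Cpa3 differed by 2.81, the B cell receptor regulator Cd72 by 2.73 and the immunoglobulin light chain gene Igkv8-30 by 2.68. Igkv8-30, and Hs3st2 named below, were read from probe sets ending in _x_at, a kind left out in 1 of the settings below. Markers of B cells and of mast cells as a whole had summed signals that were highest in LXR-DKO with LPS, and their part in these values was not tested. The co-receptor gene Tgfbr3 had signals of 257.3, 90.2, 55.9 and 136.3 and a difference of 2.80, the phospholipase gene Plaat3 206.4, 79.0, 307.9 and 809.5 and a difference of 2.78, and the actin-severing protein gene Scin 124.5, 60.8, 363.8 and 1032.2 and a difference of 2.54. Ttc39a differed by 2.83, the sulfotransferase gene Hs3st2 by 2.37, Tnfsf4 by 2.22 and the helicase gene Rtel1 by at least 2.61, although its fully measured probe sets gave 0.38 and 1.05. In the other 2 genes WT was higher and LXR-DKO lower with LPS. Taf7, a subunit of the general transcription factor TFIID, had 69.4, 142.8, 122.8 and 49.3 and a difference of -2.36, with -0.77 from its other probe set, and the provisionally named 1810064F22Rik a difference of -2.44 or lower.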

How the results depend on the processing

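The floor moved the counts most: with it at the 25th percentile of signals, 8.8, 2223 genes had a higher and 924 a lower response, and at the 75th percentile, 177.4, 281 and 148. Genes whose 4 signals all reached the floor gave 630 and 159. For probe sets the counts were 3856 and 2221 at the low floor, 383 and 281 at the high floor, and 940 higher with all 4 signals above the main floor. Of the genes called in the main setting, 255 higher and 98 lower were called at the high floor too. The other 9 settings gave between 750 and 1087 genes higher and between 211 and 370 lower. The median of all genes moved between -0.01 and 0.16. Turns of sign are given for genes with a main difference of at least 1 and lists with one of at least 0.43, in either direction. At the high floor, where dim signals are raised to it, the sign turned for Aldh1a2 (0.76), C1qb (-0.62), Dusp4 (-0.90), H2-Ob (-0.29), Plk1 (-0.57), S100a9 (-0.10), S1pr4 (-0.34), Tlr1 (-0.27) and the MAP kinase phosphatase list (-0.026). Without probe sets ending in _s_at, _x_at or _a_at, Dusp16 was 0.82 and St3gal6 1.35. As a median over probe sets St3gal6 was 1.22 and Xaf1 -0.99. With scaling to the 75th percentile Xaf1 was -3.30. With that scaling the brightest probe set was picked again, and the fully measured probe set of Xaf1 gave -3.19 in the main setting. The cause was not tested for these turns. Of 207 genes followed, 188 kept their sign in every setting that gave them a value, at most 13. The 19 others included some with a smaller main difference. Among these were Elovl6 (0.63, and as low as -0.88) and Nfkbiz (-0.84, and as high as 1.35). The medians of 20 of 35 lists kept their sign in all 13, with 0.40 to 1.55 for mitosis, 0.69 to 1.09 for dendritic cell maturation and -0.75 to -0.45 for type I interferon. The share of genes called was 10.6%, 14.4%, 7.86% and 5.87% in 4 groups of like size from dimmest to brightest. No paired analysis was possible because each group holds 1 array.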

Other observations

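Members of 3 lists with shares of higher responses near the 7.61% of all measured genes are given here with their signals. Of 21 survival and death genes 3 were higher (14.3%): Bcl2l11, which encodes the death factor BIM, had signals of 809.7, 506.0, 1637.7 and 2602.3, the ubiquitin ligase gene Birc2 286.3, 325.9, 422.3 and 1158.3, and the TNF receptor gene Tnfrsf1b 1152.8, 2484.2, 443.9 and 2096.5. In Bcl2l11 and Birc2 both LXR-DKO signals lay above both WT signals, whereas in Tnfrsf1b LXR-DKO control was the single low array. Probe sets of Bcl2l11 ranged from 0.09 to 1.60, and the other fully measured one of Tnfrsf1b gave 0.0027 beside 1.13. The survival factor gene Mcl1 differed by 0.03. Of 28 glycolysis and hypoxia response genes 3 were higher (10.7%): Pfkfb3, whose product drives glycolysis, had 95.1, 104.1, 165.6 and 597.5 and a difference of 1.72, Ndrg1, a hypoxia-induced gene, one of 1.54 and the enolase gene Eno2 one of at least 1.24. Hif1a, the hypoxia factor itself, and the glucose transporter gene Slc2a1 stood at -0.13 and 0.04. In the MHC class I list, with 2 of 15 members higher (13.3%), the activator gene Nlrc5 and the peptide editor gene Tapbpl were both at 1.02, while the class I heavy chain gene H2-K1 was at -0.14.

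Of the other motifs searched in promoters, the E2F site, TTCCC followed directly by GCC, stood in 6 of 29 DNA replication promoters (20.7%) and 4.05% of those of all measured genes. An AP-1 site, TGA and TCA around any base, stood in 8 of 26 type I interferon response promoters (30.8%), against 5.25%. An antioxidant response element, TGAC and GC around any 3 bases, stood in 5 of 21 NRF2 list promoters (23.8%), against 14.9%, and a sterol regulatory element, TCAC and CCAC around any base, in 1 of 18 cholesterol gene promoters (5.56%), against 1.07%. A DR4 LXR element, AGGTCA and AGGTCA around any 4 bases, stood in 3 of 27025 promoters, 0 of them of a measured gene. Windows of this length leave out enhancers and more distant sites.

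Probe sets with several gene symbols or none were not named. Of 10092 such probe sets 3946 were measured, 253 of them (6.41%) with a response in LXR-DKO at least 2-fold above that of WT and 109 (2.76%) with one below.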
